A study of Homo sapiens with 14 samples.

Results

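The 7 genes that encode the cyclin-dependent kinase (CDK) inhibitors, CDKN1A, CDKN1B, CDKN1C, CDKN2A, CDKN2B, CDKN2C and CDKN2D, were examined among 20136 protein-coding genes for p-JUN binding and histone marks in hepatic stellate cells on a soft or a stiff matrix. The members were taken by gene name. For each of them, peaks were collected that overlapped the gene body of the hg19 (GRCh37) GENCODE annotation or the 20 kb on either side of it, here called the gene's window. The windows of CDKN2A and CDKN2B, which are neighbours on chromosome 9, overlap and share peaks.

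CDK inhibitors bind cyclin-dependent kinases or their cyclin complexes and hold cells in the G1 phase of the cell cycle. The Cip/Kip genes CDKN1A (p21), CDKN1B (p27) and CDKN1C (p57) encode inhibitors of several cyclin-CDK complexes. The INK4 genes CDKN2A (p16), CDKN2B (p15), CDKN2C (p18) and CDKN2D (p19) encode inhibitors of CDK4 and CDK6, and CDKN2A also encodes ARF, an unrelated protein, from a start site further upstream. In many cell types the CDKN2A and CDKN2B locus is silenced by Polycomb proteins, which deposit H3K27me3, and is derepressed in senescence. Activated stellate cells proliferate, and senescent stellate cells have been described in fibrotic liver. JUN is a subunit of AP-1, a dimeric factor that binds TGAGTCA or TGACTCA.

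The cells were LX-2, an immortalised line of human hepatic stellate cells without any genetic change made for this experiment, kept for 2 days on hydrogels that were soft or stiff. CUT&Tag, in which an antibody guides a transposase to its target, was performed for phosphorylated JUN (p-JUN) and for H3K4me3, H3K27ac and H3K27me3, which gave 14 peak lists. There were 2 libraries per matrix for p-JUN, H3K4me3 and H3K27me3, and 1 merged list per matrix for H3K27ac, so H3K27ac had no replicate error. The stiff p-JUN libraries were titled TCP, the study's name for culture plastic, where the stiff histone libraries were titled 40K. For p-JUN, soft and stiff are therefore the words of the labels, and the stiff cells may have been on plastic. Each assay used 10000 cells by the labels, and more by the methods. The methods state at least 2 biological replicates for sequencing, but the labels do not say that these libraries came from separate cultures, so the p-values measure only the spread between libraries.

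The value of a peak is its fold, the height of the peak over the local background of its own library. The lists held 48163 to 54168 p-JUN peaks, 18096 to 18857 H3K4me3 peaks, 18238 (soft) and 13322 (stiff) H3K27ac peaks, and 6974 to 19843 H3K27me3 peaks, and they were not scaled to each other. The H3K27me3 list with 19843 peaks, soft replicate 1, stood apart from the others, which held at most 9228. As a check of cell identity, H3K4me3 was called in all 4 lists at 6 of 10 stellate and mesenchymal markers. The 6 included ACTA2, COL1A1, PDGFRB and HAND2. Of all protein-coding genes 63.3% had such a call, so 6 of 10 is close to the background. At hepatocyte markers H3K4me3 was called in all 4 lists for 0 of 4. It was called in no list at the markers COL1A2, LRAT and DES and in 1 list at COL3A1. It was present in all 4 lists at KDR, an endothelial marker, and EPCAM, a biliary one.

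All 7 CDK inhibitor genes carried H3K4me3, a mark of active promoters, within 1 kb of one of their own start sites in all 4 lists. This was so for 63.3% of all protein-coding genes. p-JUN lay at the promoters of 4 members, CDKN1A, CDKN2A, CDKN2B and CDKN2C, in all 4 lists, against 40.8% of genes. At CDKN1B it was called in replicate 2 of each label, at CDKN2D in soft replicate 1 alone, and at CDKN1C in no list. Taking the whole windows, 6 of 7 members had p-JUN in every list, against 74.2% of genes, with CDKN2D as the exception. H3K27me3 was called at no member's own promoter in any list. Counting calls in every list, 0 of 7 members and 2.7% of genes had it there, so the members are close to the background.

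**Figure D1:**
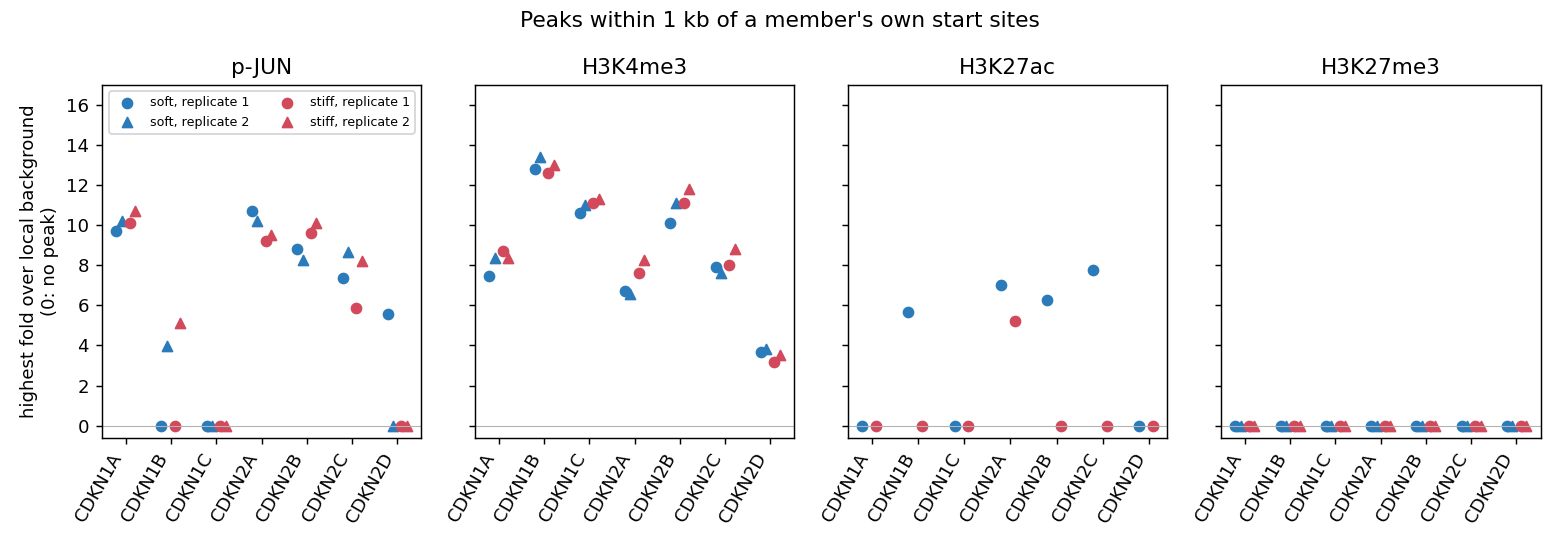
Highest fold over local background (y axis, linear) among peaks within 1 kb of each member's own start sites, by mark, with blue for soft and red for stiff libraries, circles for replicate 1 or a merged H3K27ac list, triangles for replicate 2, and 0 where no peak was called. H3K4me3 was present at all 7 genes and lowest at CDKN2D, p-JUN was present in all 4 lists at 4 genes, and H3K27me3 was at 0 throughout.

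By significance, the highest-ranking p-JUN peak in any member's window was at CDKN1A. A broad peak was called in every list within chr6:36646289-36648554, a region of 2266 bp that begins at the downstream start sites of the gene and runs into an intron. Its fold was 9.69 and 10.2 on soft against 10.1 and 10.7 in the libraries labelled stiff. By significance it ranked 851 and 652 in the soft lists and 975 and 906 in the stiff lists, which is within the top 2.00% of each. The summit held 589 and 556 fragments on soft against 461 and 547 on stiff, and in every list it lay 1697 or 1698 bp downstream of the nearest start site. The ranges of the folds overlapped between the labels, and the difference was 0.02 on the log2 scale (SE 0.10, adjusted p = 0.97, limma).

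The CDKN1A region held 3 copies of TGACTCA, at chr6:36647213-36647219, chr6:36648003-36648009 and chr6:36648310-36648316. The last of them lay 67 or 68 bp from the summits. The stretches around the other two sites, which are intronic and lie 1030 and 240 bp from the summits at most, are shown because they carry the AP-1 motif (capitals) under this p-JUN peak (GRCh37, plus strand).
CDKN1A chr6:36647163-36647269: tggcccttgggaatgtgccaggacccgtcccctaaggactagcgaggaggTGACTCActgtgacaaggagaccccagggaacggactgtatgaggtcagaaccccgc
CDKN1A chr6:36647953-36648059: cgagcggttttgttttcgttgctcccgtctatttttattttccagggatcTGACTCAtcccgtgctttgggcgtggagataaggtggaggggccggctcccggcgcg

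H3K4me3 at CDKN1A overlapped the p-JUN region, in chr6:36646456-36648133, which ends before the p-JUN summits. Its folds were 7.45 and 8.34 on soft against 8.72 and 8.34 on stiff. These overlapped as well, and the log2 difference was 0.04 (SE 0.08, adjusted p = 0.91, limma). Neither H3K27ac nor H3K27me3 was called anywhere in the CDKN1A window. CDKN1A was the only member with H3K4me3 and p-JUN at its promoter in every list and H3K27ac in neither list, a combination found at 10.3% of genes. Of the other p-JUN regions in the window, one at chr6:36668975-36669571, in an intron of RAB44, was called in all 4 lists. Its folds were 8.27 and 8.16 on soft against 7.16 and 8.30 on stiff. Another at chr6:36634752-36635321, upstream of the gene, was called in 3 lists, with folds of 7.96 in soft replicate 1 and 7.54 and 8.72 in the stiff libraries.

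**Figure D2:**
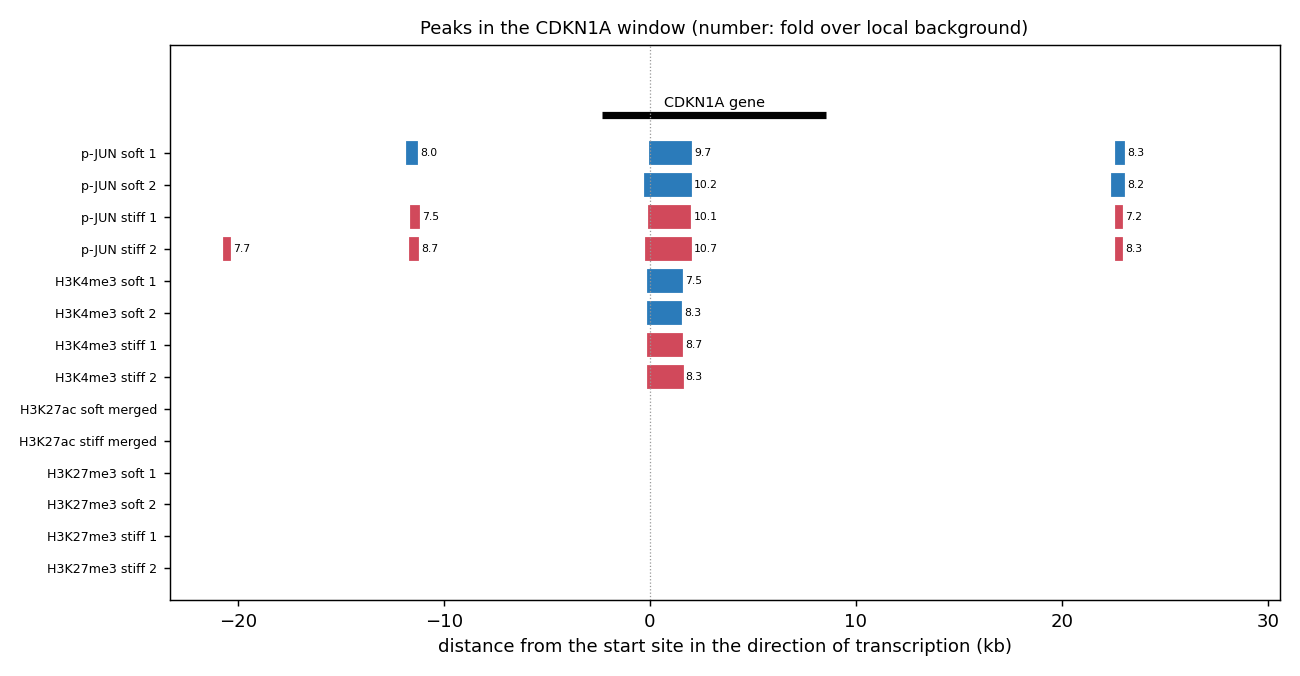
Peaks of the 14 lists in the CDKN1A window, with distance from the most downstream start site in kb (x axis) and one row per list, blue for soft and red for stiff, and the fold beside each peak. The p-JUN and H3K4me3 peaks that begin near the start were called in every library, with p-JUN folds of 9.69 to 10.7. The p-JUN summits lay 1697 or 1698 bp downstream of the start. The H3K27ac and H3K27me3 rows are empty.

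CDKN1B had its H3K4me3 at 2 places. The region chr12:12849088-12850152, at the upstream start sites that CDKN1B shares with GPR19, an orphan receptor gene on the other strand, had folds of 12.8 and 13.4 on soft against 12.6 and 13.0 on stiff. These were the highest H3K4me3 folds of the family. The region chr12:12869428-12872616, at the downstream start sites, was broader, at 3189 bp, and lower, with folds of 4.44 and 5.14 on soft against 4.86 and 4.93 on stiff. The p-JUN peak just upstream of the downstream start sites, with its summit at -196 bp, had a fold of 3.96 in soft replicate 2 and 5.11 in stiff replicate 2 and was absent from both lists of replicate 1. H3K27ac was called at the shared upstream start in the soft list alone, with a fold of 5.66, 12 fragments and rank 17964 of 18238.

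Away from its own promoter, the CDKN1B window held 4 p-JUN regions that were called in all 4 lists, 2 of them at the start of APOLD1. One lay in an intron of CDKN1B that is also within GPR19, at chr12:12842816-12843591, with folds of 8.57 and 7.36 on soft against 9.69 and 8.45 on stiff. These overlapped between the labels, and the log2 difference of 0.14 (SE 0.14) had an adjusted p of 0.82 (limma).

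CDKN1C had the plainest promoter. It carried H3K4me3 at chr11:2906423-2907087 with folds of 10.6 and 11.0 on soft against 11.1 and 11.3 on stiff, and no p-JUN or H3K27ac. The raw folds on stiff were above those on soft, while after centring of each library on its median the log2 difference was -0.02 (SE 0.07, adjusted p = 0.947, limma). CDKN1C lies in an imprinted domain, and its window reaches the start of SLC22A18, a transporter gene of the same domain. There p-JUN was called in every list at chr11:2919690-2920563 (folds 6.37 and 6.39 on soft, 7.19 and 6.06 on stiff), and H3K27ac in both lists at chr11:2919663-2920650 (5.87 on soft, 6.37 on stiff). This was the only H3K27ac region in any member's window that was called on both matrices. Its log2 difference after centring was 0.22, under the 2-fold difference that 0.0% of 11044 shared H3K27ac regions passed.

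The CDKN1C window also held the one member region that was called in both libraries of one label and neither of the other. It was a p-JUN region at chr11:2913495-2914402, called on soft alone. Its peaks were weak, with folds of 3.62 and 4.23, and ranked 47175 of 51665 and 42399 of 48163. Of all genes 6.01% had such a soft-only p-JUN region in their window, so 1 of 7 members is close to the background. No member's window held a stiff-only p-JUN region (6.62% of genes), a soft-only H3K4me3 region (1.16%) or a stiff-only H3K4me3 region (2.31%).

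The AP-1 motif lay within 50 bp of a p-JUN summit for 2 of 16 and 3 of 16 member peaks in the soft lists and for 3 of 13 and 3 of 19 in the stiff lists. In the whole lists the shares were 30.6% to 32.8%, and at positions 1 kb from the summits 1.71% to 1.74%. In total 6 of the 22 p-JUN regions in the members' windows held the motif anywhere along their length, against 50.7% of all 61411 p-JUN regions, whose lengths differ. The regions that did and were called in every list were the CDKN1A region and 4 others away from the members' own start sites. The sixth, upstream of CDKN1A at chr6:36625867-36626146, was called in stiff replicate 2 alone. Of the 4 regions away from the start sites, 3 stretches are shown with the motif in capitals (GRCh37, plus strand).
CDKN1B intron, also within GPR19, chr12:12843296-12843402: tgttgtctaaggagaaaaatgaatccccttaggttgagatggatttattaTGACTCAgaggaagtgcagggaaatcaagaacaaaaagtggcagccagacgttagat
CDKN1B window, within APOLD1, chr12:12879855-12879961: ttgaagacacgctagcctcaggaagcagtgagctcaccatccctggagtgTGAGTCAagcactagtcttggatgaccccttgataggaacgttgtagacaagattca
CDKN1C window, near the SLC22A18 start, chr11:2920048-2920154: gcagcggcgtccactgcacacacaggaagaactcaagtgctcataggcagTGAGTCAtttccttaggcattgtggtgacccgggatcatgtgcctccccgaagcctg

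No p-JUN region at CDKN2A, CDKN2B, CDKN2C or CDKN2D held TGAGTCA or TGACTCA, and none in any member's window held TGACGTCA, the motif of JUN and ATF dimers, which lay at 0.727% to 0.834% of all summits. For comparison with the stretches above, the 101 bp around the highest p-JUN summits just upstream of the p16 and p15 start sites are shown, with no motif to mark.
CDKN2A p16 start, chr9:21974996-21975096: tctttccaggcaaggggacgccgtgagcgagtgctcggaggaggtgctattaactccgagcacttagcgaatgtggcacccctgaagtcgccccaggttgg
CDKN2B start, chr9:22009317-22009417: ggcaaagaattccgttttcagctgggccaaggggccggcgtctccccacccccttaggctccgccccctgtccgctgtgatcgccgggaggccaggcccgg

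CDKN2A had p-JUN and H3K4me3 peaks at both start sites in every library. At the p16 start the p-JUN region chr9:21974564-21975231 had folds of 10.7 and 10.2 on soft against 9.20 and 9.50 on stiff. Both stiff values were below both soft values. The log2 difference was -0.20 (SE 0.10, adjusted p = 0.557, limma) and did not pass the test. With the fragments at the summit (57 and 55 on soft against 38 and 36 on stiff) in place of the fold it was -0.65 (adjusted p = 0.0773, limma), which did not pass either. H3K4me3 at the same start, chr9:21973773-21975942, had folds of 6.71 and 6.56 on soft against 7.62 and 8.27 on stiff. Here both stiff values were above both soft values, with a log2 difference of 0.18 (SE 0.08, adjusted p = 0.498, limma). Of the regions called in every library, after centring, p-JUN was lower without overlap in 21.2% and H3K4me3 higher without overlap in 19.3%. This separation of the libraries is therefore common.

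The ARF start of CDKN2A lies close to the start of the antisense gene CDKN2B-AS1, and the marks there cannot be assigned to one of them. H3K4me3 was split into 2 regions around it, chr9:21993472-21994405 and chr9:21994742-21996122. The first had folds of 3.91 and 4.07 on soft against 4.62 and 4.71 on stiff, and the second 6.11 and 5.73 on soft against 6.21 and 5.62 on stiff. The first was higher on stiff without overlap by 0.15 on the log2 scale (SE 0.07, adjusted p = 0.537, limma), whereas the second overlapped between the matrices. p-JUN at chr9:21993884-21994850 had folds of 6.0 and 6.53 on soft against 5.63 and 7.40 on stiff, which overlapped.

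H3K27ac at CDKN2A was called at different places on soft and stiff. On soft it lay just upstream of the p16 start, at chr9:21974862-21975263, with a fold of 7.02, 26 fragments and rank 8815 of 18238. On stiff it lay upstream of the ARF start, at chr9:21995748-21996070, with a fold of 5.24, 14 fragments and rank 13170 of 13322. The stiff peak was thus among the weakest of its list.

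CDKN2B, which TGF-beta is known to induce, had a single promoter region each for H3K4me3, p-JUN and H3K27ac. The H3K4me3 region chr9:22008252-22009485 had folds of 10.1 and 11.1 on soft against 11.1 and 11.8 on stiff. The p-JUN region chr9:22008830-22009588 had folds of 8.83 and 8.27 on soft against 9.63 and 10.1 on stiff. For p-JUN both stiff values were above both soft values, with a log2 difference of 0.16 (SE 0.10, adjusted p = 0.66, limma). When the fragments at the summit (57 and 45 on soft, 44 and 52 on stiff) replaced the fold, the sign turned, to -0.14. H3K27ac was called on soft alone, at the start site, with a fold of 6.29, 13 fragments and rank 17036 of 18238. No H3K27me3 was called in the joined windows of CDKN2A and CDKN2B in any list. Of all 25436 H3K27me3 regions only 10.2% were called in every list, so a missing call says little about the mark.

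**Figure D3:**
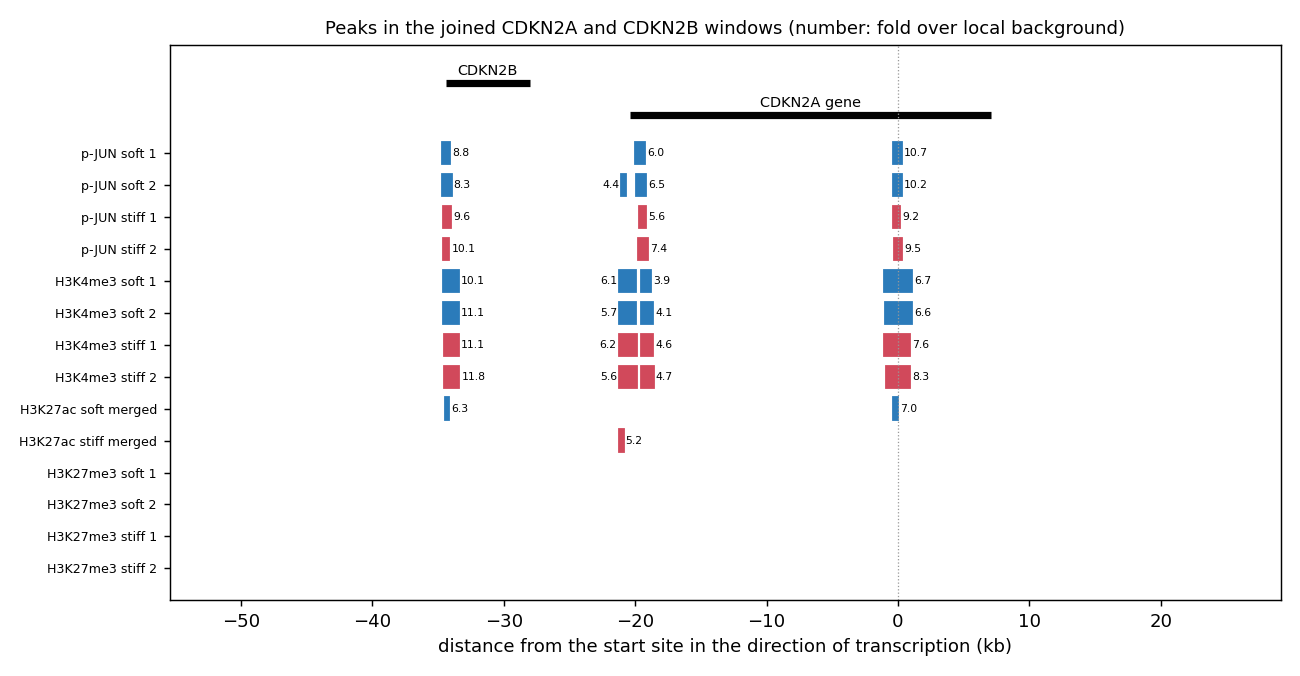
Peaks of the 14 lists in the joined CDKN2A and CDKN2B windows, with distance from the p16 start site in kb in the direction of transcription (x axis) and one row per list, blue for soft and red for stiff, and the fold beside each peak. p-JUN and H3K4me3 sat at the p16, ARF and p15 starts in every library, the H3K27ac peaks of soft (7.02 and 6.29) and stiff (5.24) fell at different starts, and the H3K27me3 rows are empty.

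CDKN2C carried H3K4me3 over its upstream start site, which faces that of FAF1, at chr1:51424776-51426431, and over its downstream start sites, at chr1:51433456-51436785. The upstream region had folds of 7.91 and 7.62 on soft against 8.03 and 8.81 on stiff, and the downstream region, the longest H3K4me3 region of the family at 3330 bp, 5.48 and 5.70 on soft against 6.13 and 5.74 on stiff. p-JUN at the downstream start sites was low in rank. At chr1:51433863-51434257 its folds were 7.35 and 8.66 on soft against 5.25 and 8.21 on stiff. The low value was that of stiff replicate 1, with 19 fragments. The log2 difference was -0.33 (SE 0.18, adjusted p = 0.632, limma), and -0.07 without that library. Another downstream p-JUN region, chr1:51435426-51435841, had folds of 7.10 and 6.04 on soft against 5.87 and 7.31 on stiff. Its log2 difference was -0.04 (SE 0.12, adjusted p = 0.951, limma). At the upstream start, chr1:51426023-51426377, p-JUN was called only in soft replicate 1 (fold 6.91) and stiff replicate 2 (6.23). H3K27ac was called on soft alone at both starts, with folds of 7.78 and 6.77, and on stiff alone downstream of the gene, at chr1:51442563-51443073, with a fold of 5.33.

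CDKN2D had the lowest H3K4me3 folds of the family. They were in 2 short regions on either side of its start sites. The region chr19:10678722-10679294 had folds of 3.65 and 3.82 on soft against 3.16 and 3.52 on stiff. The region chr19:10679612-10680166 had folds of 3.48 and 3.42 on soft against 3.13 and 2.66 on stiff. In both regions the stiff values lay below the soft values. These were the 2 of the 16 fitted H3K4me3 member regions with an unadjusted p under 0.05 (limma). Of all 16098 fitted H3K4me3 regions 1635 had such a p, so 2 of 16 is close to the background. The log2 differences were -0.24 (SE 0.08, unadjusted p = 0.022, adjusted p = 0.439, limma) and -0.33 (SE 0.11, unadjusted p = 0.0189, adjusted p = 0.429, limma). They were -0.02 and -0.11 when the fragments at the summit replaced the fold. The neighbouring KRI1 promoter in the same window went the other way, with folds of 6.81 and 6.14 on soft against 7.78 and 7.97 on stiff (log2 difference 0.21, SE 0.09, adjusted p = 0.506, limma). CDKN2D, like CDKN1A, had no H3K27ac in its window, and neither did 37.5% of genes.

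To compare the matrices across the family, the highest fold of each region that was called in every library was fitted with limma over all regions of the mark. No region passed an adjusted p of 0.05 for p-JUN (0.0% of 40433) or for H3K4me3 (0.0% of 16098), and so none of the 12 p-JUN and 16 H3K4me3 member regions did. At an unadjusted p under 0.05 there were 3833 of the 40433 p-JUN regions, and 0 of the 12 in the members' windows. For H3K4me3 there were 1635 of the 16098 regions, and 2 of the 16 member regions. The member differences ran from -0.33 to 0.16 for p-JUN, with a median of 0.02, and from -0.33 to 0.21 for H3K4me3, with a median of 0.01. The medians over all regions were -0.0088 and -0.0046. After centring of each library on its median, 2 p-JUN member regions were higher and 2 lower on stiff without overlap between the libraries. The shares of all regions were 18.5% and 21.2%. For H3K4me3 3 were higher and 4 lower, against 19.3% and 22.4%. The folds given above are not centred. In them the lower p-JUN region in RAB44 and the lower H3K4me3 region at the upstream CDKN1B starts overlapped, and H3K4me3 at CDKN1C was higher on stiff. Both H3K4me3 promoter regions of CDKN2C were higher on stiff without overlap only before centring. So was a p-JUN region at the APOLD1 start, with folds of 4.58 and 4.34 on soft against 4.90 and 4.75 on stiff. No H3K27me3 member region could be fitted, because none was called in every library.

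**Figure D4:**
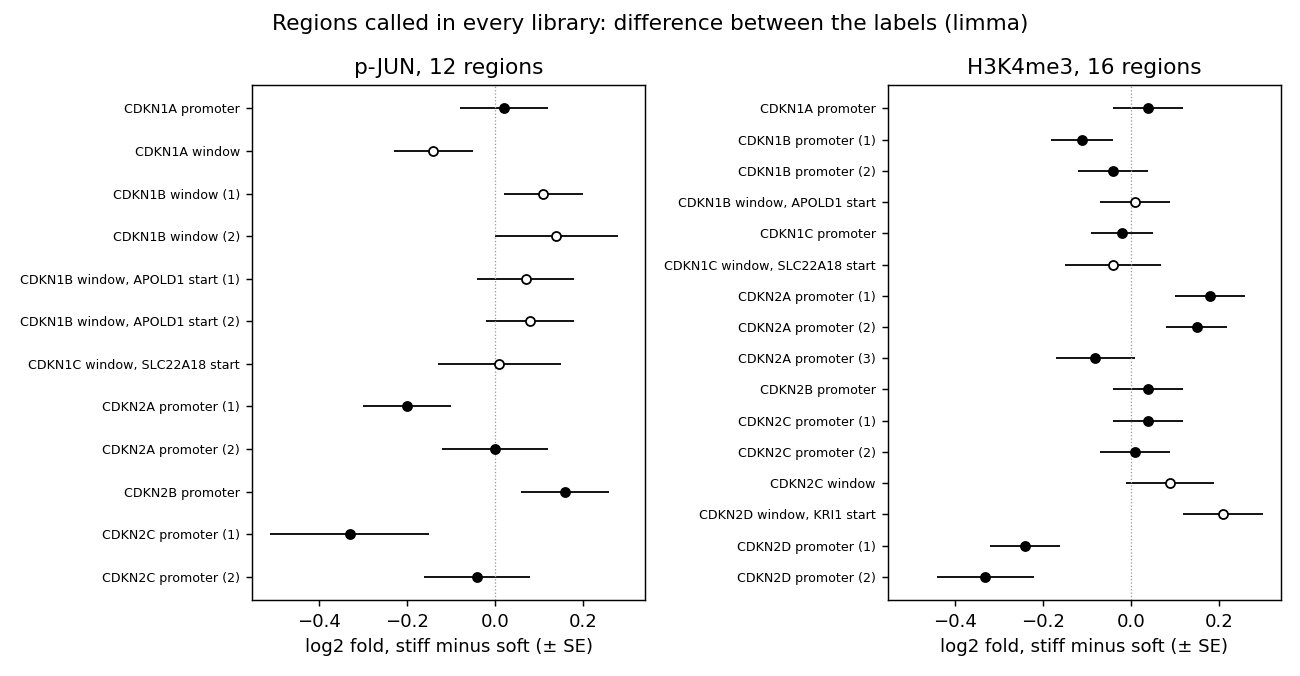
Difference in log2 fold between stiff and soft (x axis, centred per library, bars ± SE from limma, 2 libraries per matrix) for the 12 p-JUN and 16 H3K4me3 regions in the members' windows that were called in every library, with filled points at members' own promoters and numbers in brackets counting regions of one promoter in order of position. Values ran from -0.33 to 0.16 and from -0.33 to 0.21, and no region passed an adjusted p of 0.05.

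The number of peaks in the joined windows of all members was also compared. There were 16 and 16 p-JUN peaks on soft against 13 and 19 on stiff, so both means were 16.0, with an SD of 4.24 on stiff (n = 2, two-sided exact permutation p = 1.0). H3K4me3 gave 18 and 17 peaks on soft against 17 and 17 on stiff (n = 2, exact permutation p = 1.0). With 2 libraries against 2 this test cannot give a p below 0.33. H3K27me3 covered 1871 bases in soft replicate 1 and 0 in the other 3 libraries (n = 2, exact permutation p = 1.0). These bases were one peak in the CDKN1B window, at chr12:12834033-12834348 with a fold of 3.59, and one in the CDKN1C window, at chr11:2884551-2886105 with a fold of 3.16, both in the list that was longest by far. The windows of the other 5 members held no H3K27me3 in any list, as did 65.4% of all genes' windows.

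H3K27ac gave 6 peaks on soft against 3 on stiff. The stiff share of 33.3% had a 95% exact binomial interval of 7.49% to 70.1%, which covers counting error only and includes the stiff share of all H3K27ac peaks, 42.2%. At their own promoters 3 members, CDKN1B, CDKN2B and CDKN2C, had H3K27ac on soft alone, against 11.0% of genes, and 0 on stiff alone, against 2.65%. CDKN2A had it in both lists, against 22.8% of genes, at the different places given above. The windows of 4 members, CDKN1B, CDKN2A, CDKN2B and CDKN2C, held a soft-only H3K27ac region (32.5% of genes), and those of 3, CDKN2A, CDKN2B and CDKN2C, a stiff-only one (12.4%). CDKN2A and CDKN2B were counted through the same stiff-only region, chr9:21995748-21996070, and share the soft-only region chr9:22009037-22009375, so these members are not independent. With 1 list per matrix and a longer soft list, the H3K27ac differences had no replicate check. With both lists cut to equal length by significance, the windows held 4 H3K27ac peaks on soft and 3 on stiff, a stiff share of 42.9%. With a −log10 q of at least 10 in both lists, the soft-only promoters were those of CDKN2A and CDKN2C, and no member had H3K27ac at its promoter in both lists.

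The inhibitors were set beside 28 genes of the same circuit, which were 10 CDKs and cyclins, 7 pocket protein and E2F genes and 11 regulators of the inhibitors. H3K4me3 lay at the promoters of all 28 in all 4 lists, as at the 7 inhibitors, against 63.3% of all protein-coding genes. p-JUN was called in every list at 16 of the 28, against 40.8% of genes. It was called in no list at 6, for which the share of all genes was not computed. The E2F genes, whose products the pocket proteins restrain, were split, with no p-JUN at E2F1, E2F2 and E2F4 and p-JUN in all 4 lists at E2F3. H3K27ac was called in both lists at 7 of the 28, close to the 22.8% of all genes. The 7 included CDK4 and CDK6, the kinases that the INK4 proteins bind. H3K27ac was on soft alone at 4 (CDK1, CDK2, RB1 and E2F4), against 11.0% of genes. It was on stiff alone at 4 (CCNA2, RBL2, CKS1B and TFAP4), against 2.65%. With 1 merged list per matrix, neither count had a replicate check. The stiff folds of the last 4 were 8.06, 6.49, 2.90 and 7.89, in that order. H3K27me3 lay at the promoter in every list at 0 of the 28, against 2.7% of genes. In 3 of 4 lists it was called at 2, BMI1, the Polycomb gene known to repress CDKN2A, and CCND2. The share of all genes with such a partial call was not computed.

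The genes with the most similar promoter profile to each member were found by the Euclidean distance between highest promoter folds, on the log2(fold + 1) scale with 0 where no peak was called, over the 14 lists. Genes that share a promoter peak with the member were left out. For CDKN1A they were HOMER1 (distance 0.184), PTPN11 (0.226) and HUS1 (0.233). For CDKN1B they were ETAA1 (0.242), CDK2 (0.294) and FHIP2B (0.337). CDKN1C, with H3K4me3 alone, had close matches in CUL9 (0.0227), TBL3 (0.053) and NOC2L (0.0554). The closest genes to 3 of the INK4 members were ATP6V0D1 for CDKN2B (0.23), ANKH for CDKN2C (0.306) and PSME1 for CDKN2D (0.148).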

How the data were processed

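Peak lists of CUT&Tag libraries from LX-2 cells were used, 14 in all, grouped by the treatment labels. Per the authors' methods, TrimGalore removed adapters, Bowtie2 aligned reads to hg19 and Picard marked duplicates. MACS2 is the peak caller the study lists, and its version, options and control are not given in the sources used here. Each peak has a deposited fold (ratio of summit to local background), deposited −log10 values of p and of q, and a deposited score derived from the −log10 q. H3K27me3 lists hold broad peaks, with values averaged over each peak. Read totals were not analysed here.

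For narrow peaks, fragments at the summit were computed from fold and −log10 p, and came out whole (relative error under 1e-04) for nearly all peaks (median 26 to 207 per summit). Peaks on 24 chromosomes were merged into regions where they shared 1 bp. Log2 folds of regions called in every library, centred on each library's median, were fitted with limma 3.58.1 (R 4.3.3) and adjusted by Benjamini-Hochberg over all regions. On simulated data this step recovered 100 of 100 regions at planted log2 changes of 1 and of 2. It also made 24 (p-JUN) and 25 (H3K4me3) false calls among unchanged regions. Changes as small as the member differences were not simulated. An exact permutation test, two-sided, was used for window totals. Genes and start sites were from GENCODE release 44 mapped to GRCh37, and sequences from the GRCh37 reference genome. Alternatives were other flanks, thresholds, list lengths, normalizations and left-out libraries. The main fit did not pair the libraries by replicate number. Same-numbered deviations correlated at 0.005 in p-JUN, -0.05 in H3K4me3 and 0.036 in H3K27me3 libraries, which cannot show whether they were paired. The 7 members, the genes of a list of 28 circuit genes and up to 3 genes nearest in profile to each member could be named. Some of these, and some motif stretches, are not reported here, and the members and lists were chosen with earlier results of these data known. Other software was scipy 1.17.1, pandas 2.3.3 and numpy 2.4.6 under python 3.11.15.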

Additional observations from a re-analysis of the deposited data

How the results depend on the processing

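None of the member regions called in every library passed an adjusted p of 0.05 under any alternative, in which 11 to 13 p-JUN and 16 or 17 H3K4me3 regions were fitted. Directions held under every alternative that gave a value (the stricter threshold gave none for the last named) for CDKN2D (both H3K4me3 regions), for the p16 start of CDKN2A (p-JUN and H3K4me3), for its H3K4me3 region starting at 21993472, for the upstream H3K4me3 region of CDKN1B and for the p-JUN region of CDKN2C starting at 51433863. Other small differences changed sign. Without centring, the log2 difference was 0.0 for p-JUN at CDKN2C (region starting at 51435426), 0.04 for p-JUN at the ARF start of CDKN2A, 0.05 for H3K4me3 at CDKN1C and 0.03 for H3K4me3 at the downstream starts of CDKN1B. With fragments at the summit in place of the fold it was -0.24 for p-JUN at CDKN1A, -0.14 for p-JUN at CDKN2B, 0.21 for H3K4me3 at CDKN1C, 0.22 at CDKN1B, 0.07 at the ARF start of CDKN2A (region starting at 21994742) and -0.09 at CDKN2B. For p-JUN at the ARF start it was 0.0 with the stricter threshold and where peaks had to cover 50% of the region. The causes were not tested.

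With 1 library left out at a time, p-JUN differences ranged from -0.02 to 0.06 at CDKN1A, from -0.13 to 0.13 at the ARF start and from -0.16 to 0.07 at CDKN2C (region starting at 51435426). H3K4me3 differences ranged from -0.02 to 0.10 at CDKN1A, from -0.12 to 0.04 at CDKN1B, from -0.16 to 0.01 at the ARF start, from -0.01 to 0.08 at CDKN2B, and from -0.01 to 0.09 and from -0.05 to 0.08 at CDKN2C. The difference in H3K4me3 peaks over the windows ranged from -1.0 to 0.0, that in p-JUN peaks from -3.0 to 3.0, and that in H3K27me3 bases from -1871.0 to 0.0, which is its value without soft replicate 1. With lists of equal length the H3K27me3 difference was also 0.0. With the stricter threshold 0 members had H3K27ac at the promoter in both lists. With the replicate number as a block, the differences over the windows were 0.0 p-JUN peaks, -0.5 H3K4me3 peaks and -935.5 H3K27me3 bases. With this block 0 p-JUN and 0 H3K4me3 member regions were called, so the pairing changed no member call. Among all 2602 fitted H3K27me3 regions, none of them a member region, 5 were called lower on stiff with the block and 0 without it. The H3K27ac promoter peaks rested on 12 to 36 fragments at the summit.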
